A study of Mus with 5 samples.

Results

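Binding of RARα and BATF was examined at 9 genes that encode brakes on MAP kinase signalling. They are the dual-specificity phosphatase (DUSP) genes Dusp1, Dusp2, Dusp4, Dusp5, Dusp6, Dusp10 and Dusp16 and the Sprouty genes Spry1 and Spry2, out of 21900 protein-coding genes in the gene table. A peak was counted for a gene when the symbol stood among the genes that the deposited annotation names for that peak. The members held 3 of 1172 RARα peaks in the control list and 2 of 597 in the list with retinoic acid (RA). They held 29 of 15812 BATF peaks in the control list and 16 of 9899 with RA. The genes were listed by name, and no peak value enters the rule.

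The peaks come from chromatin immunoprecipitation sequencing (ChIP-seq), which recovers DNA fragments attached to a protein with an antibody against it. The cells were CD8 T cells from the spleen of wild-type (WT) mice. The labels give no age for these samples, and the study's methods give an age range in weeks for most experiments without naming this one. The cells were labelled naive and had been activated for 24 h with antibodies to CD3 and CD28 and with IL-2. A rest of 24 h in 100 U/ml IL-2 followed. Control cells received no RA, and RA cells received RA at 50 nM for 1 h before fixation. The treatment labels name IL-7, IL-8, IL-9 and IL-10 for the 4 ChIP samples in place of IL-2, and whether the cells used for IgG received RA is not stated.

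Each list had been called on 2 pooled ChIP files against 1 file from normal rabbit IgG, the same file for all 4 lists, and whether the pooled files are separate cultures or repeated runs is not stated. With 1 list per condition there is no spread between replicates, and differences between the control and RA were described without a test between conditions. Intervals on shares, fragment numbers and ratios below are 95% intervals that cover counting error only. Depth was 22655611 fragments in the RARα control pool and 22475060 in its RA pool. The BATF pools had 23110180 (control) and 16424269 (RA), and the IgG file 11410673. The BATF RA pool was therefore 71.1% as deep as its control, and the RARα RA pool 99.2%. RARα peaks had to reach a p-value of 0.001 and BATF peaks one of 1e-05. The smallest peak held 9 fragments at its summit in each RARα list, 13 in BATF control and 10 in BATF with RA. A peak list holds no expression level, so the labelled cell type could not be checked by its transcripts. Of 5 CD8 T cell marker genes all 5 had a BATF peak in both lists, against 5 and 3 of 5 B cell markers and 2 and 2 of 5 myeloid markers in control and RA, and 48.6% and 38.3% of all protein-coding genes. RARα control peaks were at 3 CD8 T cell, 2 B cell and 1 myeloid marker gene and at 0 of the 15 with RA, against 7.18% and 3.19% of all protein-coding genes. Cd8a and Cd8b1 were given the same intergenic peak. The B cell and myeloid peaks were intergenic too, 11435 to 89683 bp from their genes. These peaks do not tell the cell types apart.

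DUSP proteins of this class remove phosphate from both the threonine and the tyrosine of the activation loop of MAP kinases, and thereby switch off ERK, JNK or p38. Many of their genes are themselves switched on by the kinases they inactivate, which makes them feedback brakes. Sprouty proteins act further upstream and dampen the passage of signals from receptors through RAS to ERK. In T cells this pathway carries signals from the antigen receptor. BATF is an AP-1 family factor of activated T cells that binds DNA together with JUN proteins and IRF4, and RARα is a nuclear receptor for RA.

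RARα was found at 1 of the 9 genes, Dusp5, in the control list and at the same gene with RA. Over all protein-coding genes, 7.18% had a RARα peak in the control and 3.19% with RA. BATF was found at 7 of the 9 genes in the control and at 6 with RA, against 48.6% and 38.3% of all protein-coding genes. Spry1 had BATF peaks in the control list only, and Dusp16 and Spry2 had none in any list. Dusp6 had the most BATF peaks, 9 in the control and 5 with RA. Dusp10 had 5 and 2, Dusp2 had 4 and 3, Dusp5 had 4 and 3, Dusp4 had 4 and 1, Spry1 had 2 and 0, and Dusp1 had 1 and 2. The number of peaks thus went down at 6 of these 7 genes and up at Dusp1, where a single wide control peak faced 2 narrow RA peaks. Among the 10652 protein-coding genes with a BATF control peak the median was 1.00 peak, and 191 genes had 9 or more, against 27 with RA. At least 4 BATF peaks were found at 1692 protein-coding genes in the control and at 632 with RA. Lower counts per gene were thus also the direction of the whole list, whose RA pool was shallower.

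**Figure D1:**
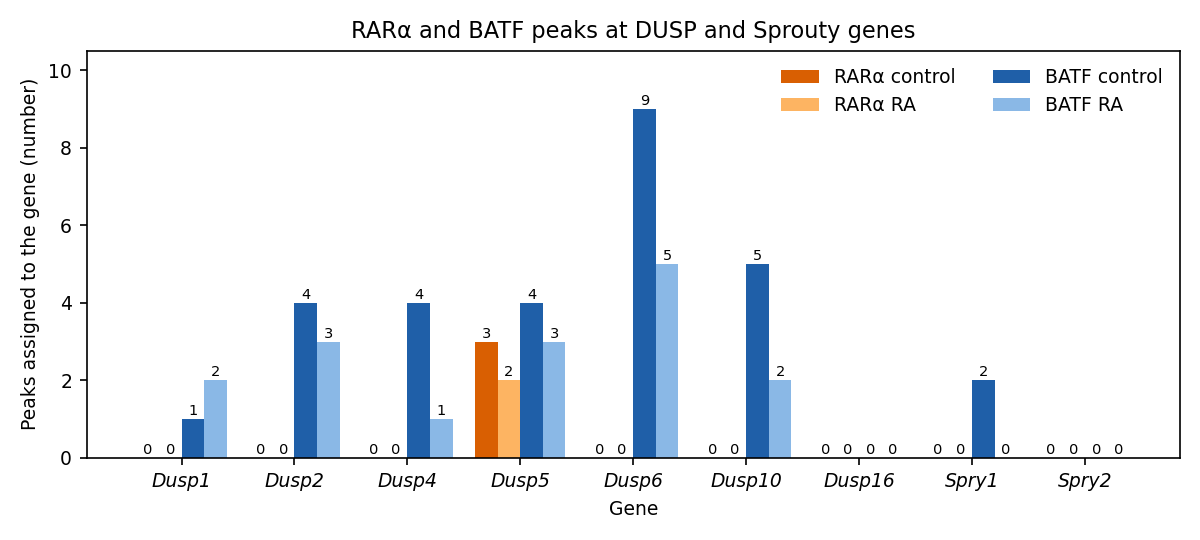
Number of peaks that the deposited annotation assigns to each gene (vertical axis) in the 4 lists (bars, 1 list per condition, so no error bar). RARα bars stand at Dusp5 alone (3 control and 2 RA peaks), and the BATF bars are highest at Dusp6 (9 and 5).

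Dusp5 encodes a nuclear phosphatase that acts on ERK. The gene lies at chr19:53529145-53541809 in the mm10 genome and was the member bound by both factors. In the control, a RARα peak at its promoter (chr19:53529116-53529357) had 12 fragments at the summit (6.20 to 21.0) and a fold enrichment over the local IgG level of 3.27, with a −log10 p of 4.82. A second promoter peak, in a CpG island inside the gene (chr19:53529946-53530217), had 16 fragments, a fold of 4.38 and a −log10 p of 7.91. The third and strongest lay in intron 2 (chr19:53536666-53537108) with 22 fragments, a fold of 4.63 and a −log10 p of 10.3. Ranked by fold these were peaks 510, 168 and 145 of the 1172 in the list, whose median fold was 3.09. Having 3 or more RARα control peaks was shared by 46 of the 1573 protein-coding genes that had any.

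With RA, 1 RARα peak remained at the promoter of Dusp5 (chr19:53529150-53529409), with 14 fragments (7.65 to 23.5), a fold of 3.79 and a −log10 p of 6.26. It overlapped the first control peak, their summits were 138 bp apart, and the fragments, scaled to the depth of each pool, were 1.18 times those of the control (0.505 to 2.78). That interval spans 1, so no difference was detectable at this depth. The CpG-island peak and the intron 2 peak had no overlapping RARα peak with RA, and the nearest lay 537 bp and 7257 bp away. Within 5 kb, the tolerance of the study's methods, 2 of the 3 control peaks had a RARα RA peak (66.7%, 20.8 to 93.9), against 10.2% of all RARα control peaks. Both of those 2 peaks face the same single RA peak.

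The other RARα peak assigned to Dusp5 with RA was a weak intergenic one in a LINE repeat (chr19:53590461-53590803), 48652 bp past the end of the gene. It had 11 fragments, a fold of 3.03 and a −log10 p of 4.21, and the annotation names Smc3 and Rbm20 for it too. The peak did not meet a q-value of at most 0.05. No BATF peak lay within 5 kb of it, the nearest being 9762 bp away. The IgG level at the 5 RARα summits was between 0.987 and 1.39 times the background level.

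Each of the 3 RARα control peaks at Dusp5 overlapped a BATF control peak (100%, 43.9 to 100), against 53.4% of all RARα control peaks overlapping and 61.9% within 5 kb. Both promoter RARα peaks lie under the same wide BATF peak, so the 3 peaks, all at a single gene, are not independent of each other. At the intron 2 site the summits of the factors were 6 bp apart, and at the first promoter site 18 bp. The CpG-island RARα summit lay 889 bp from the summit of the BATF peak that covers it. With RA the promoter sites still overlapped, with the summits 368 bp apart.

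BATF at the Dusp5 promoter spanned 2561 bp in the control (chr19:53528591-53531151), with 37 fragments and a fold of 9.68. With RA the peak (chr19:53528728-53530263) had 19 fragments and a fold of 3.76, so the fold with RA was 0.389 of the control fold. Scaled to depth the summit fell less far, to 0.723 of the control (0.393 to 1.29), an interval that spans 1. The RA summit lay 248 bp from the control summit. The IgG level, from the same IgG file, was 2.13 times background at the RA summit against 0.987 at the control summit. At the same promoter the RARα fold was 1.16 times the control value, and whether the factors differ was not tested. Both depth-scaled intervals span 1, and the other RARα control peak under this BATF peak, in the CpG island, had no overlapping partner with RA.

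In intron 2 of Dusp5, BATF (chr19:53536491-53537106) had 31 fragments and a fold of 5.27 in the control and 16 fragments and a fold of 5.10 with RA, a depth-scaled ratio of 0.726 (0.371 to 1.37). At this site, and also at the CpG island, RARα was called in the control and had no overlapping RARα peak with RA. In intron 3 the BATF values were 18 and 13 fragments, with folds of 3.76 and 4.42. A further BATF control peak 94531 bp before the gene (chr19:53433938-53434614), assigned also to Smndc1, Mxi1 and 5830416P10Rik, had 43 fragments and a fold of 7.24 and no overlapping peak with RA.

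**Figure D2:**
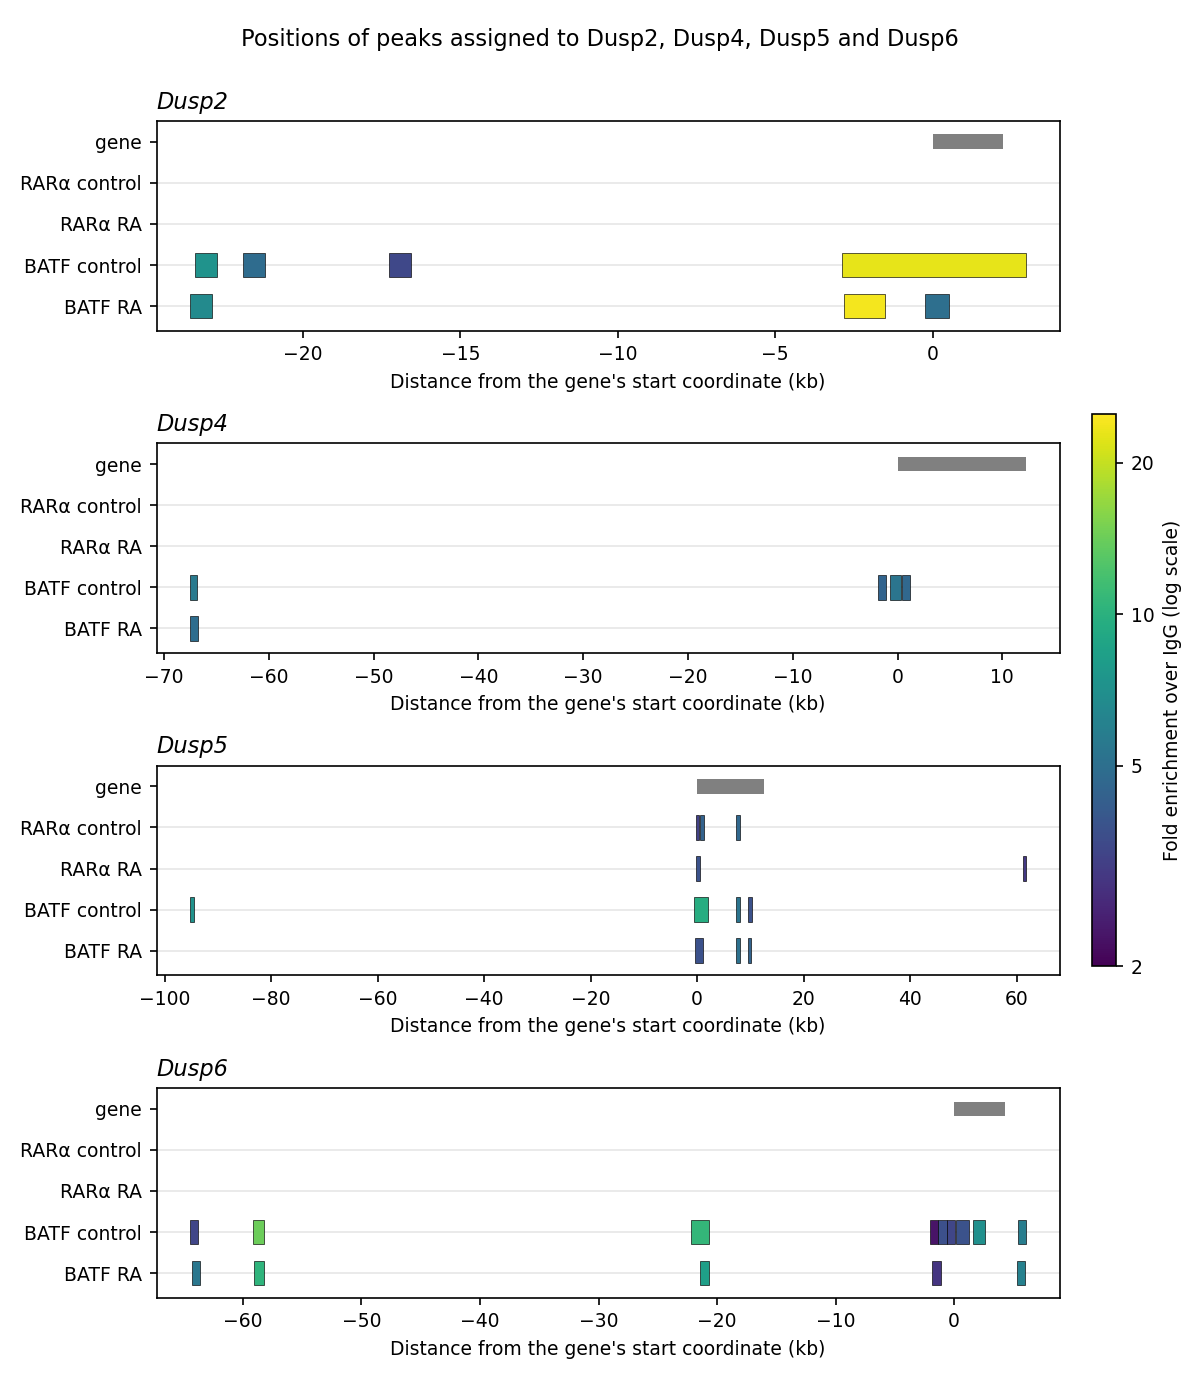
Peaks assigned to 4 of the genes, drawn by distance in kb from the start coordinate of the gene (grey bar), with 1 row per list and colour giving the fold enrichment over IgG on a log scale. Peaks narrower than 0.7 kb are drawn 0.7 kb wide, and gene strand is not shown. The control rows of Dusp4 and Dusp6 hold clusters at the gene start that are missing or reduced to 1 peak in the RA rows, whereas the distal peaks stand in both.

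Dusp2, an inducible nuclear phosphatase of lymphocytes, had the strongest BATF peak of the members. In the control it spanned 5855 bp across the promoter and the whole gene (chr2:127333277-127339131), rank 10 by length among the 15812 peaks. Its summit, 2040 bp before the start coordinate of the gene, held 133 fragments (111 to 158) with a fold of 22.8, rank 175 of the list by fold. With RA the summit moved by 7 bp and held 102 fragments (83.2 to 124) with a fold of 23.8, in a peak of 1307 bp (chr2:127333338-127334644). The depth-scaled ratio was 1.08 (0.825 to 1.41), so a fall to below 0.825 of the control lies outside counting error. A separate RA peak (chr2:127335917-127336665), with 19 fragments and a fold of 5.00, covered only the part of the gene (chr2:127336159-127338377) next to its start coordinate. The rest of the gene had no RA peak. The annotation names Astl beside Dusp2 for the control peak.

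Of 3 intergenic BATF control peaks between 16595 and 22787 bp before Dusp2, the farthest (chr2:127312764-127313372) was called in both lists, with 31 fragments and a fold of 7.34 in the control and 21 fragments and a fold of 6.64 with RA. The others, with folds of 4.82 and 3.46, had no overlapping RA peak. All 3 carry the names of 7 genes, Snrnp200 and Ciao1 among them, so their tie to Dusp2 is one assignment of several.

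Dusp1 encodes the founding nuclear MAP kinase phosphatase, which acts on p38, JNK and ERK. Its BATF control peak (chr17:26507165-26508970) had 52 fragments and a fold of 8.03, with the summit 173 bp past the end coordinate of the gene (chr17:26505591-26508472), where the annotation places the transcription start. With RA the overlapping peak of nearest summit (chr17:26508582-26508952) had 26 fragments and a fold of 5.87, and a second (chr17:26507838-26508267) had 21 fragments and a fold of 3.64. The depth-scaled ratio at the nearer summit was 0.704 (0.422 to 1.15), which spans 1.

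Dusp4, another inducible nuclear phosphatase, had 3 BATF control peaks at its promoter and none with RA. They held 17, 29 and 24 fragments with folds of 4.48 (chr8:34805790-34806503), 5.33 (chr8:34806910-34807948) and 4.65 (chr8:34808228-34808602). From these the nearest BATF RA peak was 65175 to 67613 bp away. That peak, intergenic and 66995 bp before the gene (chr8:34740305-34740615), had 32 fragments and a fold of 4.88, against 50 fragments and a fold of 5.60 for its control partner, a depth-scaled ratio of 0.901 (0.559 to 1.43). It is assigned also to B930018H19Rik and Tnks.

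Dusp6 encodes the cytoplasmic phosphatase that is selective for ERK. The gene (chr10:99263231-99267489) had 5 control peaks classed as promoter, whose summits ran from 1557 bp before its start coordinate to 1788 bp inside it, with 36, 27, 32, 34 and 39 fragments and folds of 2.28, 3.70, 3.38, 3.78 and 7.05. The first of them alone overlapped an RA peak, which had 21 fragments and a fold of 2.94. At that first site the IgG level was 5.14 times background in the control and 3.19 times with RA. The strongest, within intron 2 (chr10:99264797-99265815), had no RA peak nearer than 2906 bp.

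The 4 intergenic BATF peaks of Dusp6 were in both lists. The one 58236 bp before the gene (chr10:99204115-99204995) was the strongest, with 85 fragments (67.9 to 105) and a fold of 14.2 in the control and 42 fragments and a fold of 10.3 with RA, a depth-scaled ratio of 0.695 (0.469 to 1.02). The one 20653 bp before the gene had 42 and 24 fragments with folds of 10.6 and 8.26. The remaining pair, 63981 bp before and 1226 bp after the gene, had folds of 3.39 and 5.79 in the control and 5.44 and 6.00 with RA. All 4 carry Poc1b as a further name.

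Dusp10 and Dusp16 encode phosphatases that prefer JNK and p38. At Dusp10 the promoter peak (chr1:184033379-184034878), shared with 1700056E22Rik, had 50 fragments and a fold of 6.30 in the control and 23 fragments and a fold of 6.00 with RA. Its depth-scaled ratio, 0.647 (0.377 to 1.08), was the lowest of the 14 member peaks paired by overlap and nearest summit. A peak in intron 2 (chr1:184048619-184049816) went the other way, with 52 fragments and a fold of 4.36 in the control and 48 fragments and a fold of 6.55 with RA, a ratio of 1.30 (0.859 to 1.96). Neither interval excludes 1. The 3 intergenic control peaks between 8759 and 27949 bp before Dusp10 (folds of 3.33, 4.64 and 3.46) had no overlapping RA peak. At Dusp16 no peak was assigned, and the nearest BATF peak lay 22529 bp away at the promoter of Crebl2 in the control (fold 7.13) and 22762 bp away with RA (fold 4.64).

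Spry1 had a BATF control peak at its promoter (chr3:37639879-37640275) with 30 fragments and a fold of 4.23, and another 9546 bp past the gene (chr3:37654145-37654609) with 26 fragments and a fold of 6.67. With RA neither had a partner, and the nearest BATF peak lay 103623 bp from the gene. Spry2 stood far from any BATF peak, at 2237916 bp in the control and 1369169 bp with RA. RARα was also distant from the 8 members other than Dusp5, with the nearest control peak 193641 bp (Dusp6) to 2173155 bp (Dusp10) away. A site with fewer than 9 fragments could not have been called for RARα, so weak binding there cannot be told apart from none.

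Of the 29 member BATF control peaks, 19 had a BATF RA peak within 5 kb (65.5%, 47.3 to 80.1), against 69.9% of the whole list. Overlap of at least 1 bp was found for 14 of 29 (48.3%, 31.4 to 65.6), against 54.4%. In the other direction all 16 RA peaks had a control peak within 5 kb (100%, 80.6 to 100), against 96.3%. The members thus stood near the whole list in both directions. By class, 5 of 13 promoter peaks overlapped an RA peak (38.5%, 17.7 to 64.5) against 61.2% of all promoter peaks, 6 of 13 intergenic peaks (46.2%, 23.2 to 70.9) against 47.9%, and 3 of 3 intronic peaks against 41.3%. Of the 8 promoter peaks without a partner, 4 belong to Dusp6, 3 to Dusp4 and 1 to Spry1, so these peaks are not independent of each other.

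Each member control peak was first paired with the BATF RA peak of nearest midpoint within 5 kb. Of these 19 pairs 13 had the lower fold in the RA list (68.4%, 46.0 to 84.6), against 66.9% of all such pairs, with medians of 5.60 in the control and 5.00 with RA. That order of the medians turns, to 6.17 and 6.34, when the constant of 1 that the peak caller adds to the ChIP and IgG levels is left out. This pairing sets the wide control peaks of Dusp1 and Dusp2 against the weaker of their RA peaks, giving depth-scaled ratios of 0.568 and 0.201, the only 2 of the 19 with an interval below 1. It also sets all 5 promoter peaks of Dusp6 against the same RA peak, with a fold of 2.94. Intergenic peaks of Dusp2 (folds of 7.34 and 4.82) share an RA peak as well. The 19 pairs are therefore not independent of each other. A second pairing, chosen after these values were seen, took the overlapping RA peak of nearest summit, and it is the one used for the single peaks above. Its 14 member pairs had median folds of 6.04 (control) and 5.94 (RA), and 8 of 14 had the lower fold in the RA list (57.1%, 32.6 to 78.6), against 75.5% of all such pairs. The depth-scaled ratios ran from 0.647 to 1.47 with a median of 0.861, beside a median of 0.844 over all pairs. All 14 intervals span 1. Over the whole list, 7.70% of pairs had an interval below 1 and 0.325% above it.

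**Figure D3:**
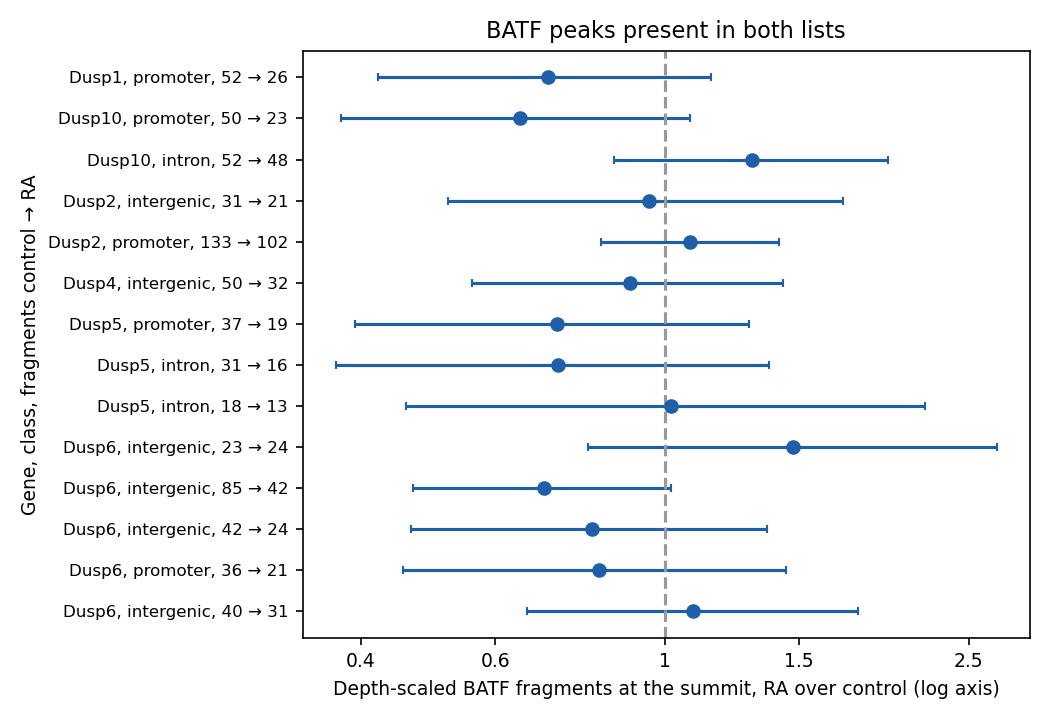
BATF fragments at the summit, scaled to the depth of each pool, with RA divided by the control (horizontal log axis) at the 14 overlapping member pairs, named by gene and class with the fragment numbers. Points are ratios and bars are exact 95% intervals for counting error. Every bar crosses the dashed line at 1, and the points run from 0.647 (Dusp10 promoter) to 1.47 (Dusp6 intergenic).

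Since the BATF RA pool was shallower, each control peak was rescaled to its depth, a check added after the data had been seen. At that depth 27 of the 29 member control peaks would still pass the cutoff, against 93.6% of the list. The 2 that would fail, in intron 3 of Dusp5 and at the Dusp6 promoter, were nonetheless called with RA. All 15 member peaks without an overlapping RA peak would pass, against 87.5% of such peaks in the list. The rescaling carries no counting error, and some passed narrowly. An intergenic peak of Dusp10 and another of Dusp2 reached a −log10 p of 5.23 against the cutoff of 5.00. Among control peaks that would pass, 12 of 27 member peaks overlapped an RA peak, against 57.4%. The 15 had folds of 3.33 to 7.24 with a median of 4.48, whereas the 14 with a partner had a median of 6.04 (2.28 to 22.8). In the whole list the medians were 4.52 without and 6.72 with a partner.

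For each of the 15, the largest number of RA fragments that would have escaped the cutoff was worked out at the IgG level of the control summit. As a depth-scaled ratio to the control it was between 0.425 and 0.915, with a median of 0.704. For 13 of the 15 the interval of that bound reaches 1, so the missing call does not show lower binding beyond counting error. The other 2 were the intron 2 peak of Dusp6 (at most 0.469, 0.230 to 0.898) and the distal peak of Dusp5 (at most 0.425, 0.210 to 0.806). All 15 were picked because they were called in the control and had no overlapping RA peak. The intervals make no allowance for that choice, so lower binding at these 2 was not tested. The bounds at the Dusp4 promoter were 0.828, 0.582 and 0.704, with intervals that span 1, and at Spry1 0.704 and 0.541, likewise spanning 1.

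**Figure D4:**
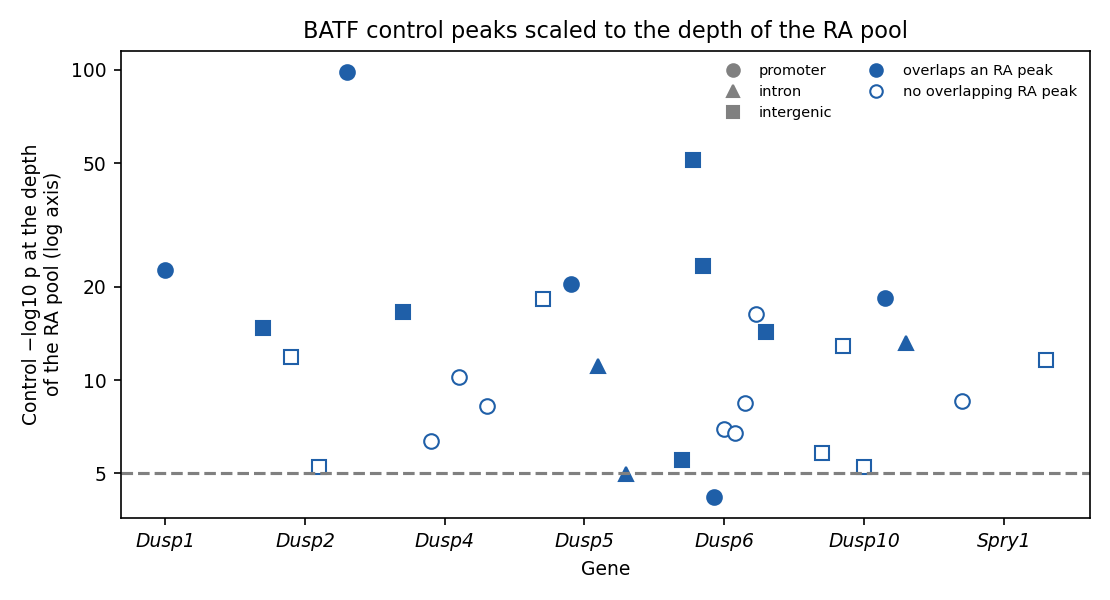
The −log10 p of each of the 29 member BATF control peaks after scaling to the depth of the RA pool (vertical log axis), by gene. Filled symbols overlap an RA peak, open symbols do not, shapes give the class, and the dashed line is the cutoff. All 15 open symbols lie above the line and 2 filled symbols lie below it.

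Promoter was the deposited class of 13 of the 29 control peaks (44.8%, 28.4 to 62.5) and of 7 of the 16 RA peaks (43.8%, 23.1 to 66.8), against 58.7% and 64.6% of the lists. Another 3 control peaks were intronic and 13 intergenic, and with RA 3 and 6. The peak overlapped the gene body in 12 control peaks and lay within 10 kb of it in 19. Only 14 of the 29 named a single gene, and the distant ones depend on the assignment rule. An IgG level of at least 2 times background was found at 13 of the 29 control peaks, against 32.1% of the list, and at 6 of the 16 RA peaks, against 30.3%. The part of it in the results was not tested.

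The wider pathway was read from 76 other genes in 6 lists. Of the 15 other DUSP genes, none had a RARα peak and 7 had a BATF peak in each list. Among 5 further Sprouty and SPRED genes 3 had a BATF peak in each list. In the RAS to ERK cascade it was 16 of 17 genes in the control and 14 with RA, in the JNK and p38 cascade 11 and 8 of 14, among early response genes downstream of ERK 16 and 14 of 17, and among RAS GTPase-activating genes 7 and 7 of 8. Together 60 of 76 genes (78.9%) had a BATF peak in the control and 53 (69.7%) with RA, beside 48.6% and 38.3% of all protein-coding genes.

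RARα peaks were found at 12 of the 76 genes in the control and 4 with RA, and at 14 in either list, where 7.18% (control) and 3.19% (RA) of all protein-coding genes had one. Only Fos and Sos1 had one in both. At Fos, an AP-1 subunit, an intergenic peak 90479 bp away had folds of 6.93 and 5.56. The annotation names 4 genes for this peak, and it overlapped no BATF peak in either condition. The peaks of Sos1, which loads RAS with GTP, were at different sites with folds of 2.77 and 2.53. In the control alone, the highest folds were at Egr1, a transcription factor induced by ERK (7.64, intergenic, with 6 genes named), at Spred2, a relative of the Sprouty genes (6.28, intron), and at Rasa3, which inactivates RAS (5.61, intron). The remaining control genes were Rasgrp1 (4.27), Mapkapk3 (4.21), Ier2 (4.04), Jun (3.14), Mapk14 (2.62), Ksr1 (2.52) and Myc (2.52), by the higher fold where there were several peaks. The peaks of Ier2 and Myc were at the promoter and that of Ksr1 in an intron. Those of Rasgrp1 (75744 bp away), Mapkapk3 (23006 bp), Jun (55360 bp) and Mapk14 (65701 bp) were intergenic. The annotation names 6 genes for the Mapkapk3 peak and 8 for the Mapk14 peak. At the Rasgrp1 promoter the fold was 2.85. With RA alone there were Sos2 (3.03, intron) and Egr2 (3.03, intergenic, 82284 bp away), each with 11 fragments and no overlapping BATF peak. Dusp5, with folds of 3.27 to 4.63, was therefore in the middle of this range. Dusp5 was also 1 of 266 protein-coding genes with a RARα peak in both lists and 1 of 199 with a peak in all 4.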

How the data were processed

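The ChIP-seq peak lists were used as deposited. The authors aligned paired-end reads with Bowtie2 and, per the file headers, called peaks on mm10 with MACS 2.2.7.1 from 2 pooled ChIP files against 1 IgG file. HOMER is named in the submitters' processing notes. The deposited pileup is a signal, the fragments at the summit, scaled to 0.9875 per fragment in the BATF control list. The deposited fold enrichment is a ratio in which the peak caller adds 1 to the pileup and 1 to the local IgG level. The deposited p-value and q-value are on the −log10 scale.

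Members were found by symbol in the deposited gene names, and distances were taken to the gene body from RefSeq positions on GRCm38.p6, to which mm10 corresponds. At least 99.6% of gene names matched. The IgG level and fragments were recovered from fold and pileup. The IgG background is the level expected from depth and fragment length over an effective genome of 1870000000 bp. Shares carry Wilson intervals, fragments exact Poisson intervals and ratios exact conditional binomial intervals. The members, gene lists and comparisons were chosen with earlier results of these data known. Named genes were all members and, of the pathway lists, those with a RARα peak. A gene of these lists is not reported here and is left out of the counts. The counting steps were tested on simulated data. Python 3.11.15, pandas 2.3.3, scipy 1.17.1 and matplotlib 3.10.9 were used. Sequences were not analysed here.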

Additional observations from a re-analysis of the deposited data

Results flagged for a closer look

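At the promoter of Dusp5 the fold values of the factors stood on opposite sides of the control. At the RARα site called in both lists, the fold with RA was 1.16 times the control fold (3.79 against 3.27), whereas the BATF fold was 0.389 times the control fold (3.76 against 9.68). This difference was not tested, since each value comes from 1 pooled list. Scaled to depth, the RARα ratio was 1.18 (0.505 to 2.78) and the BATF ratio 0.723 (0.393 to 1.29), intervals that overlap and both span 1. The BATF control peak also covers a second RARα control peak (fold 4.38, 16 fragments), which had no overlapping RARα peak with RA. The IgG level, from the same IgG file, was 0.987 times background at the BATF control summit and 2.13 times at the RA summit, 248 bp away. The fold is taken over that level, and its part in the lower fold was not tested.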

How the results depend on the processing

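A fold of at least 5 left 0 RARα control peaks, 0 RARα RA peaks and 0 genes with a RARα peak in either list, and 14 BATF control peaks. Under a −log10 p of at least 5, under a q-value of at most 0.05 and under assignment within 10 kb, 1 RARα RA peak was left, the one at the Dusp5 promoter. Its overlapping control peak (−log10 p of 4.82, −log10 q of 0.610) does not pass those p and q limits, so the only RARα site overlapping between the lists then has no control call. These limits, and merging within 1 kb, each left 2 RARα control peaks. Assignment within 10 kb left 19 BATF control peaks. With a tolerance of 10 kb in place of 5 kb, 100% of the RARα control peaks at Dusp5 had a RARα RA peak nearby. The median BATF fold with RA over the control, 0.894, turned to 1.03 without the added constant of 1. The other 66 alternative values moved less than their counting interval or at most 1.5 times for a count, or kept their direction. Among them were the 4 chosen after seeing the data, with 63.0% of control peaks that pass at the depth of the RA pool lying near an RA peak, 57.1% of pairs lower with RA, a fold ratio of 0.983 and a fragment ratio of 0.861. No paired analysis was possible because each condition has 1 list. RARα calls at 9 to 22 fragments leave wide intervals, and BATF depth differs between conditions. Gene names for peaks far from a gene follow the deposited annotation.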

Other observations

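Peaks near the members that the annotation gives to other genes were listed within 200 kb, a window chosen after the data were seen. In the control, 5 more RARα peaks lay between 64015 and 104172 bp before Dusp5, within or next to 5830416P10Rik and toward Mxi1, with folds of 2.35 to 5.28. All 5 overlapped a BATF control peak, against 53.4% of all RARα control peaks. The 5 lie in a single stretch and are not independent of each other. With RA, 0 RARα peaks other than the assigned ones lay in that window. Over the whole list, 10.2% of RARα control peaks had a RARα RA peak within 5 kb.

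The strongest BATF peak within 200 kb of Dusp4 is not assigned to it. This intergenic peak, 135281 bp before the gene (chr8:34671125-34672329) and named for B930018H19Rik, had 221 fragments and a fold of 31.3 in the control, rank 64 by fold in the list. With RA it had 134 fragments and a fold of 25.4, rank 89.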
